A study of Homo sapiens with 16 samples.

Results

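The kinases of the mitogen-activated protein (MAP) kinase cascade were followed in 2 established human multiple myeloma cell lines after repression of KANSL2. The members are the 46 genes, of 28277 gene symbols in each expression table, whose symbol is MAP4K, MAP3K, MAP2K, MAPK or MAPKAPK followed by a number. They comprise 5 MAP4K, 18 MAP3K, 7 MAP2K, 13 MAPK and 3 MAPKAPK genes. RNA was profiled in INA6 cells with KANSL2 knockdown and INA6 cells with a non-targeting guide, and in JJN3 cells with KANSL2 knockdown and JJN3 cells with a non-targeting guide, in 3 libraries per group and 12 in all. Every group is labelled as an untreated plasma cell line. The knockdown used a catalytically inactive Cas9 (dCas9) with a part that the series names CRAB, guided to KANSL2, and the controls carried dCas9 with the non-targeting guide. KANSL2 encodes a subunit of the non-specific lethal complex, which acetylates histones at promoters. How many guides were used, whether the cells were clones or pools, the time after guide delivery and whether replicates were separate cultures are not stated in the labels of the RNA libraries, so a p-value here reflects library-to-library spread alone, part of which may be technical. The values are rlog values, counts scaled per library and shrunken on a log2 scale, normalised separately in each line. A difference is the knockdown mean minus the non-targeting mean on that scale.

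MAP kinase signalling passes a signal through successive phosphorylation. MAP4K and small GTPases act on MAP3K, which phosphorylate MAP2K, which phosphorylate MAP kinases, and these act on transcription factors and on further kinases such as the MAPKAPK. The main branches end in the classical ERK kinases (growth factors and RAS), ERK5, JNK (stress) and p38 (stress and cytokines). In myeloma RAS and ERK signalling is a frequent driver, and INA6 is known as a line that needs interleukin 6, a cytokine that also feeds into this cascade. These data measure RNA, not phosphorylation, which is what sets the activity of these kinases.

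The libraries followed their labels. KANSL2 had rlog values of 7.71, 7.60 and 7.76 in INA6 knockdown libraries, against 8.06, 8.02 and 8.16 in INA6 non-targeting libraries, and 76.4% of its control level remained. It had 6.00, 5.98 and 6.06 in JJN3 knockdown libraries, against 7.25, 7.24 and 7.19 in JJN3 non-targeting libraries, with 43.1% remaining. On the shrunken rlog scale the fall of KANSL2 RNA was larger in JJN3 (−1.21, SE 0.0559) than in INA6 (−0.39, SE 0.0625). The percentages of control come from these shrunken differences and are not measured shares of RNA. KANSL2 protein was not measured. No pair of libraries was identical. The first principal component separated the arms and held 78.7% of the variance in INA6 and 78.9% in JJN3. Of 10 plasma cell markers, 9 had a mean of at least 3 in each line. The mean over the plasma cell markers ran from 10.5 to 10.6 in INA6 knockdown libraries and 10.8 in INA6 non-targeting libraries, and was 10.1 in JJN3 knockdown libraries and 9.91 to 9.97 in JJN3 non-targeting libraries. Of these 9 markers 2 rose and 6 fell in INA6, and 5 rose and 1 fell in JJN3, at a limma adjusted p below 0.05. By the same rule 48.6% of all tested genes were called in INA6 and 51.0% in JJN3. Means over T and NK cell, myeloid and stromal markers reached at most 1.57 in any library of either line, but single markers stood higher. In INA6 3 of 8 T and NK cell, 2 of 9 myeloid and 0 of 8 stromal markers had a mean of at least 3. In JJN3 these counts were 1, 2 and 1. The myeloid marker CD68 averaged 7.38 in INA6 knockdown and 7.55 in INA6 non-targeting libraries. The B cell mean was 4.17 to 4.22 in INA6 knockdown and 4.20 to 4.23 in INA6 non-targeting libraries, and 2.61 to 2.67 in JJN3 knockdown and 2.64 to 2.68 in JJN3 non-targeting libraries. Of 4 tested B cell markers 0 were called in INA6 by limma, with 0 at an unadjusted p below 0.05, while in JJN3 MS4A1 rose (0.64) and CD79B (−0.60) and CD79A (−0.15) fell. The part of these marker shifts, and of the depth of knockdown, in the kinase results was not tested. Depth per library is unknown. EIF4A1, a translation factor that every cell uses, was chosen after its values were seen and is listed at 0 in all libraries, so a value of 0 or near it does not show absence.

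Within each line, limma tested every gene whose values averaged 3 or more across its 6 libraries, and an adjusted p below 0.05 was called. In each line 40 of the 46 kinases reached that mean. MAP4K4 and MAPK10, the JNK gene known from nervous tissue, were below it in both lines, MAPK15 was listed at 0 in all 12 libraries, and MAPK4 was listed at 0 in INA6 and averaged 1.53 in JJN3 knockdown and 1.50 in JJN3 non-targeting libraries. MAP3K15 and MAP3K21 were below the minimum in INA6, and MAP3K6 and MAP3K19 in JJN3. MAP3K21 had 7.24, 7.07 and 7.20 in JJN3 knockdown and 7.29, 7.36 and 7.13 in JJN3 non-targeting libraries, and was tested there.

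In INA6 14 of 40 tested kinases (35.0%) were called, 6 higher and 8 lower, where 48.6% of all tested genes were called, 24.7% higher and 24.0% lower. That balance depended on scaling: with each library centred on its median, which moved the median of all genes to 0.04, 10 were higher and 5 lower, and 61.9% of all called genes were higher, against 50.7% without centring. In JJN3 23 of 40 (57.5%) were called, 6 higher and 17 lower, against a background of 51.0%, with 25.5% in each direction. In JJN3 centring gave 8 higher and 16 lower kinases, with 59.4% of all called genes higher, against 50.0% without it. The median difference of the tested kinases was −0.01 in INA6 and −0.06 in JJN3, beside 0.00094 and 0.00104 over all tested genes. The changes were mostly small: the median absolute difference was 0.11 for the kinases and 0.13 for all tested genes in INA6, and 0.14 and 0.12 in JJN3. Knockdown and non-targeting values did not overlap for 20 kinases in INA6, where the background was 55.2%, and for 25 in JJN3, where it was 56.1%. Values are relative to the rest of each library's RNA, and fewer cells expressing a gene cannot be told apart from less RNA per cell.

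**Figure D1:**
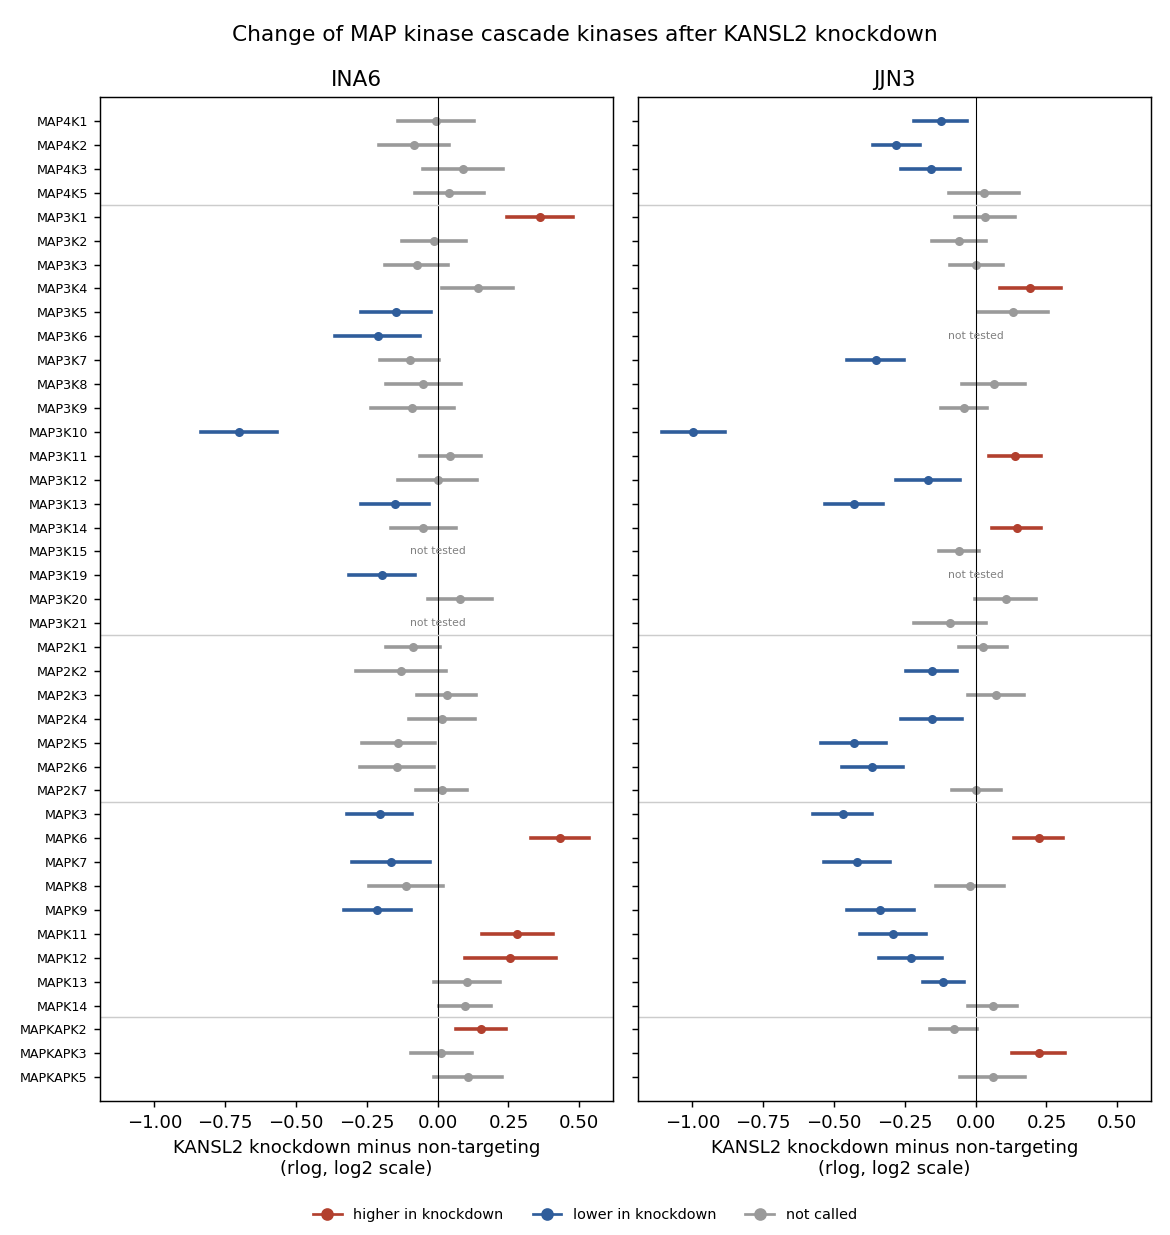
Difference between KANSL2 knockdown and non-targeting libraries (rlog, log2 scale) for kinases tested in INA6 (left) and JJN3 (right), grouped by tier from MAP4K at the top to MAPKAPK at the bottom. Points are limma estimates, bars are 95% confidence intervals from 3 libraries per arm, and colours mark calls at adjusted p below 0.05. MAP3K10 lies farthest from 0 in both lines, at −0.70 in INA6 and −0.997 in JJN3.

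The promoters of kinases that the results turn on are shown as the 250 bases before the RefSeq start in GRCh38.p14, read 5′ to 3′ on the gene's strand. The MAPK6 window lies inside the annotated span of its gene, which runs from 51971825 to 52067375 on chromosome 15. MAP3K10 and MAPK3 fell in both lines, MAPK6 rose in both, and the neighbouring MAPK11 and MAPK12 moved together in each line but in opposite directions in the 2 lines.
MAP3K10, chr19:40191176-40191425, plus strand: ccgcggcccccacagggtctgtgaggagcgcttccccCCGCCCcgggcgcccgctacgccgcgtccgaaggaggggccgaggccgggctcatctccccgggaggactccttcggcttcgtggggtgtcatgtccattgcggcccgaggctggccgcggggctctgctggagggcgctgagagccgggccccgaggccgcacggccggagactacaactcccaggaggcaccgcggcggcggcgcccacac
MAPK3, chr16:30123221-30123470, minus strand: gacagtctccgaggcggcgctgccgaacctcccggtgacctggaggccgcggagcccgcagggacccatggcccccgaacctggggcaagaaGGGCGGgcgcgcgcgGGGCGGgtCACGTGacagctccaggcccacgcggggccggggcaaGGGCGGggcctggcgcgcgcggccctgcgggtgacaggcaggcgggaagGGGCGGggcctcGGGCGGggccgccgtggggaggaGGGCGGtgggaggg
MAPK6, chr15:52018969-52019218, plus strand: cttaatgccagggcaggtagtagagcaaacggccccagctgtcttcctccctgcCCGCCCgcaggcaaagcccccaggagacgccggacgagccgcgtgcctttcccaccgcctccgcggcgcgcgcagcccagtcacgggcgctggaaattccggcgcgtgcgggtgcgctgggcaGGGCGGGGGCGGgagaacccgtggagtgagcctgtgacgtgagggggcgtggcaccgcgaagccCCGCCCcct
MAPK11, chr22:50270381-50270630, minus strand: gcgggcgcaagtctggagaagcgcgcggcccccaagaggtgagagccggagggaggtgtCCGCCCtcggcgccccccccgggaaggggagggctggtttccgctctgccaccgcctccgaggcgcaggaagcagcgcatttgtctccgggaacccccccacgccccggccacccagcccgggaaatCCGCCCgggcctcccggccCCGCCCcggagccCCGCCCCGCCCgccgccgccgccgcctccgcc
MAPK12, chr22:50261684-50261933, minus strand: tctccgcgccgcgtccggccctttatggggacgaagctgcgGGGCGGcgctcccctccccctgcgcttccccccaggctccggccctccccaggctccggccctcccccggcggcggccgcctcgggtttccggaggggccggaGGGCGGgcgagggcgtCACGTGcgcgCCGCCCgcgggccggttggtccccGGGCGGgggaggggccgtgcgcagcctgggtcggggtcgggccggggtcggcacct
Capitals mark matches, on either strand and allowed to overlap, to the motifs searched: a GC box (GGGCGG), an E-box (CACGTG), an ETS core (CCGGAAG), the cAMP response element (TGACGTCA) and a TATA box (TATAAA). The capitals in these sequences are GC boxes, with 1 in MAP3K10, 6 in MAPK3, 4 in MAPK6, 5 in MAPK11 and 4 in MAPK12, and 1 E-box each in MAPK3 and MAPK12. A GC box stood in 33 of the 41 kinase promoters with a sequence (80.5%), against 56.0% of 15843 protein-coding promoters. The kinase promoters were also richer in G and C, with a median of 72.8% against 62.4%. An E-box stood in 2 of 41 (4.88%; 7.84% of all), an ETS core in 2 (4.88%; 11.8%) and a cAMP response element in 2 (4.88%; 2.32%), with a TATA box in 0 (9.23% of all). Of the 5 kinases that fell in both lines 4 had a GC box and MAP3K13 had a cAMP response element. A match is only a string of letters in this window and shows no binding.

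At the top of the cascade, limma called 0 of 4 tested MAP4K in INA6, where 0 had an unadjusted p below 0.05, and 3 of 4 were lower in JJN3. Of all tested genes 48.6% were called in INA6 and 51.0% in JJN3, with 25.5% lower in JJN3, and 4 genes are too few to set a tier apart. MAP4K2, the germinal centre kinase that acts towards JNK, had 4.09, 4.09 and 4.13 in JJN3 knockdown libraries, against 4.41, 4.37 and 4.37 in JJN3 non-targeting libraries. The arms did not overlap, and the difference was −0.28 (SE 0.0409, limma adjusted p = 1.4e-06). Its INA6 values were 5.30, 5.26 and 5.25 in knockdown libraries and 5.36, 5.44 and 5.26 in non-targeting libraries, which overlapped (−0.08, adjusted p = 0.261).

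MAP4K3, which relays amino acid supply and antigen receptor signals, had 5.56, 5.53 and 5.54 in JJN3 knockdown libraries and 5.71, 5.71 and 5.69 in JJN3 non-targeting libraries. Every knockdown value lay below every control (−0.16, SE 0.0509, adjusted p = 0.0105), a call lost with quantile normalisation (−0.09, adjusted p = 0.149). In INA6 its values of 6.88, 6.99 and 6.74 in knockdown and 6.81, 6.79 and 6.75 in non-targeting libraries overlapped (0.09, adjusted p = 0.295). MAP4K1, the blood cell kinase that restrains antigen receptor signalling, was at −0.12 in JJN3 (adjusted p = 0.0269). That call was lost without knockdown replicate 1 (−0.10, 0.112) or 3 (−0.12, 0.0688) and without non-targeting replicate 2 (−0.12, 0.0624) or 3 (−0.10, 0.0928). No filter on low values (0.0595), median centring (−0.10, 0.0832) and quantile normalisation (−0.08, 0.159) also ended it. MAP4K5 was called in neither (0.04 in INA6 and 0.03 in JJN3).

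Among the MAP3K, MAP3K10 fell in both lines by more than any other kinase of the cascade. MAP3K10, a mixed lineage kinase known to activate JNK, lies on chromosome 19 from 40191426 to 40215575. It had 7.06, 6.88 and 7.08 in INA6 knockdown libraries, against 7.68, 7.70 and 7.73 in INA6 non-targeting libraries. Its JJN3 values were 7.37, 7.32 and 7.35 in knockdown libraries, against 8.38, 8.40 and 8.25 in non-targeting libraries. The arms stood well apart in both lines. The difference was −0.70 in INA6 (SE 0.065, adjusted p = 2.78e-08), leaving 61.5% of the control level, and −0.997 in JJN3 (SE 0.0549, adjusted p = 6.61e-15), leaving 50.1%. Both percentages come from the shrunken differences. MAP3K10 ranked 69 among the falls of 12511 tested genes in INA6 and 7 among those of 12282 in JJN3.

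Of the other mixed lineage kinases, MAP3K13, the leucine zipper kinase upstream of JNK, was also lower in both lines. It had 8.29, 8.32 and 8.21 in JJN3 knockdown libraries, against 8.74, 8.70 and 8.67 in JJN3 non-targeting libraries (−0.43, SE 0.0503, adjusted p = 3.42e-08). The INA6 values were 8.39, 8.24 and 8.22 in knockdown libraries, against 8.43, 8.41 and 8.45 in non-targeting libraries (−0.15, SE 0.058, adjusted p = 0.0364). The arms did not overlap in either line. The INA6 call was lost without any library other than knockdown replicate 1: without knockdown replicate 2 (−0.13, 0.137) or 3 (−0.12, 0.113) and without non-targeting replicate 1 (−0.15, 0.0821), 2 (−0.16, 0.067) or 3 (−0.14, 0.102). It was also lost with no filter on low values (0.0519), with median centring (−0.11, 0.11), with quantile normalisation (−0.13, 0.0744) and with replicate numbers as a block (0.059).

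The remaining mixed lineage kinases changed little. In JJN3 MAP3K12, the dual leucine zipper kinase, was lower (−0.17, adjusted p = 0.0128), a call lost without knockdown replicate 2 (−0.15, 0.0519) or non-targeting replicate 3 (−0.14, 0.0607) and with quantile normalisation (−0.10, 0.146). MAP3K11 was higher there (0.14, adjusted p = 0.0111), a call lost without knockdown replicate 3 (0.09, 0.0795) or non-targeting replicate 1 (0.12, 0.0601) and with quantile normalisation (0.08, 0.151). Neither was called in INA6, where the difference was 0.04 for MAP3K11 and the MAP3K12 values overlapped. MAP3K9 and MAP3K20, a sensor of stalled ribosomes, were called in neither line, at −0.09 and 0.08 in INA6 and −0.04 and 0.11 in JJN3, nor was MAP3K21 in JJN3 (−0.09). MAP3K12 overlaps PCBP2 and TARBP2 on the opposite strand, and no source used here says whether the counting used strand, so its reads are uncertain.

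MAP3K1, which is both a kinase upstream of JNK and a ubiquitin ligase, rose in INA6. It had 9.85, 9.83 and 9.63 in INA6 knockdown libraries, against 9.38, 9.41 and 9.43 in INA6 non-targeting libraries, with no overlap (0.36, SE 0.0559, adjusted p = 1.94e-05). In JJN3 the values of 8.81, 8.66 and 8.66 in knockdown and 8.69, 8.70 and 8.64 in non-targeting libraries overlapped (0.03, adjusted p = 0.616). Its relative MAP3K4, which GADD45 proteins bind, rose in JJN3 (0.19, adjusted p = 0.00281) and was at 0.14 in INA6 (adjusted p = 0.0563). MAP3K2 and MAP3K3, which feed the ERK5 branch, were not called and lay between −0.07 and 0.002.

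MAP3K7 (TAK1), which joins cytokine receptors to NF-kappaB, JNK and p38, fell in JJN3. It had 8.48, 8.40 and 8.38 in JJN3 knockdown libraries, against 8.77, 8.81 and 8.74 in JJN3 non-targeting libraries (−0.35, SE 0.0494, adjusted p = 6.69e-07). In INA6 it had 9.00, 8.96 and 8.94 in knockdown libraries and 9.07, 9.03 and 9.10 in non-targeting libraries, a difference that did not pass (−0.10, adjusted p = 0.11). Both lines showed separate arms.

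MAP3K14 (NIK), the kinase of the non-canonical NF-kappaB pathway, had 10.28, 10.35 and 10.36 in JJN3 knockdown libraries and 10.20, 10.19 and 10.16 in JJN3 non-targeting libraries. Knockdown values were all higher (0.15, SE 0.0421, adjusted p = 0.00472), but the call was lost with quantile normalisation (0.08, 0.117). Its INA6 values were 8.15, 8.18 and 8.23 in knockdown libraries and 8.27, 8.22 and 8.22 in non-targeting libraries, which overlapped (−0.05, adjusted p = 0.478). Its antisense gene MAP3K14-AS1, which shares 5512 bases with it, was lower in both lines (−0.34 in INA6, adjusted p = 0.000146, and −0.47 in JJN3, adjusted p = 8.52e-08), and reads of the overlap are uncertain. MAP3K8, which acts on MAP2K1 after Toll-like receptors, was called in neither line (−0.05 in INA6 and 0.06 in JJN3).

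Of the ASK kinases, MAP3K5 (ASK1), which thioredoxin holds inactive until oxidative stress, had 7.32, 7.25 and 7.32 in INA6 knockdown libraries and 7.46, 7.47 and 7.41 in INA6 non-targeting libraries. The JJN3 values were 7.12, 7.13 and 7.33 in knockdown libraries and 7.09, 7.03 and 7.07 in non-targeting libraries. No overlap between arms was seen in either line and lay in opposite orders. The difference was −0.15 in INA6 (SE 0.06, adjusted p = 0.0467) and 0.13 in JJN3 (SE 0.0603, adjusted p = 0.0675). The INA6 call was lost without any library other than knockdown replicate 1: without knockdown replicate 2 (−0.12, 0.162) or 3 (−0.16, 0.055) and without non-targeting replicate 1 (−0.14, 0.114), 2 (−0.14, 0.119) or 3 (−0.17, 0.0601). Median centring (−0.11, 0.131), quantile normalisation (−0.09, 0.199), the replicate block (0.0768) and no filter (0.0512) also ended it.

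In INA6 MAP3K6 (ASK2) was lower (−0.21, adjusted p = 0.0196), although the arms overlapped, and the call was lost without knockdown replicate 2 (−0.14, 0.153) or non-targeting replicate 1 (−0.17, 0.0972) or 3 (−0.20, 0.057) and with quantile normalisation (−0.14, 0.111). MAP3K19 was lower there as well (−0.20, adjusted p = 0.00605) and kept its call in all 11 alternatives that tested it. MAP3K15 was not called in JJN3 (−0.06).

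Of the 7 MAP2K, the dual-specificity kinases that phosphorylate MAP kinases, limma called 0 in INA6, where 2 had an unadjusted p below 0.05, and 4 were lower in JJN3. The shares over all tested genes were 48.6% called in INA6 and 51.0% in JJN3, with 25.5% lower in JJN3, and 7 genes are too few to set a tier apart. MAP2K5, the activator of ERK5, had 7.23, 7.22 and 7.19 in JJN3 knockdown libraries, against 7.73, 7.64 and 7.57 in JJN3 non-targeting libraries, which did not overlap (−0.43, SE 0.0564, adjusted p = 2.27e-07). The INA6 values were 7.35, 7.30 and 7.42 in knockdown libraries and 7.43, 7.51 and 7.55 in non-targeting libraries (−0.14, adjusted p = 0.0695). Those arms were separate too, by a narrow margin.

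MAP2K6, an activator of p38, had 5.63, 5.62 and 5.60 in JJN3 knockdown libraries, against 6.02, 5.97 and 5.95 in JJN3 non-targeting libraries, which did not overlap (−0.36, SE 0.0525, adjusted p = 1.1e-06). In INA6 it had 7.79, 7.76 and 7.62 in knockdown libraries and 7.92, 7.80 and 7.89 in non-targeting libraries, again without overlap (−0.14, adjusted p = 0.0621). MAP2K3, the other p38 activator, was called in neither line (0.03 in INA6 and 0.07 in JJN3).

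Of the activators of classical ERK kinases, MAP2K2 was lower in JJN3 (−0.16, limma adjusted p = 0.00468), a call lost without knockdown replicate 2 (−0.13, 0.051), and MAP2K1 was not called there (0.03). In INA6 MAP2K2 was at −0.13 (limma adjusted p = 0.166), and its difference between lines was not called (0.03, adjusted p = 0.855). MAP2K4, which activates JNK and p38, was lower in JJN3 (−0.16, limma adjusted p = 0.014), a call lost without knockdown replicate 2 (−0.14, 0.0656) or 3 (−0.12, 0.0789), while the JNK activator MAP2K7 stood at 0.003. In INA6 MAP2K4 was at 0.01 (limma adjusted p = 0.846), and its difference between lines was not called (0.17, adjusted p = 0.0884). MAP2K4 overlaps ZNF18 on the opposite strand, which also fell in JJN3 (−0.32), and MAP2K1 overlaps SNAPC5. Reads of these overlaps are uncertain.

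The MAPK tier had 7 of 10 tested genes called in INA6, 4 higher and 3 lower, and 8 of 10 in JJN3, 2 higher and 6 lower, beside 48.6% of all tested genes in INA6 and 51.0% in JJN3. MAPK3 fell in both lines. This gene, which encodes ERK1 and lies on chromosome 16 from 30114105 to 30123220, had 8.67, 8.66 and 8.79 in INA6 knockdown libraries, against 8.95, 8.92 and 8.86 in INA6 non-targeting libraries (−0.20, SE 0.0549, adjusted p = 0.00403). In JJN3 it had 8.15, 8.23 and 8.28 in knockdown libraries, against 8.68, 8.67 and 8.71 in non-targeting libraries (−0.47, SE 0.0507, adjusted p = 7.77e-09). Every knockdown value was below every control in both lines.

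MAPK6 (ERK3), an atypical MAP kinase that partners MAPKAPK5, rose in both lines. It had 10.97, 10.91 and 10.82 in INA6 knockdown libraries, against 10.42, 10.43 and 10.56 in INA6 non-targeting libraries (0.43, SE 0.0497, adjusted p = 5.03e-07). The JJN3 values were 10.88, 10.90 and 10.80 in knockdown libraries, against 10.59, 10.62 and 10.70 in non-targeting libraries (0.22, SE 0.0426, adjusted p = 6.73e-05). The arms did not overlap in either line, and the INA6 difference was the highest of the tested kinases there. MAPKAPK5 was at 0.11 in INA6 and 0.06 in JJN3 and was called in neither.

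MAPK7 (ERK5), the kinase that MAP2K5 activates, had 6.94, 7.06 and 7.04 in JJN3 knockdown libraries, against 7.44, 7.48 and 7.38 in JJN3 non-targeting libraries (−0.42, SE 0.0569, adjusted p = 4.15e-07). Its INA6 values were 7.00, 7.15 and 7.24 in knockdown libraries, against 7.26, 7.29 and 7.34 in non-targeting libraries (−0.16, SE 0.0671, adjusted p = 0.0475). Both lines showed separate arms, though only by a narrow margin in INA6. The INA6 call was lost without any library other than knockdown replicate 3: without knockdown replicate 1 (−0.10, 0.228) or 2 (−0.17, 0.0801) and without non-targeting replicate 1 (−0.18, 0.0635), 2 (−0.17, 0.0953) or 3 (−0.14, 0.141). Median centring (−0.13, 0.119), quantile normalisation (−0.11, 0.184) and no filter (0.0639) also ended it. MAPK7 shares 164 bases with B9D1 on the opposite strand, which was lower in both lines (−0.21 in INA6 and −0.19 in JJN3), so reads of that overlap are uncertain.

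MAPK9 (JNK2), a stress-activated kinase that phosphorylates JUN, was lower in both lines. It had 8.05, 8.01 and 7.95 in INA6 knockdown libraries, against 8.18, 8.25 and 8.21 in INA6 non-targeting libraries (−0.21, SE 0.057, adjusted p = 0.00398). In JJN3 it had 7.80, 7.93 and 7.69 in knockdown libraries, against 8.16, 8.09 and 8.18 in non-targeting libraries (−0.34, SE 0.0578, adjusted p = 1.52e-05). No overlap between arms was seen in either line. MAPK8 (JNK1) was called in neither line, at −0.11 in INA6 and −0.02 in JJN3.

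**Figure D2:**
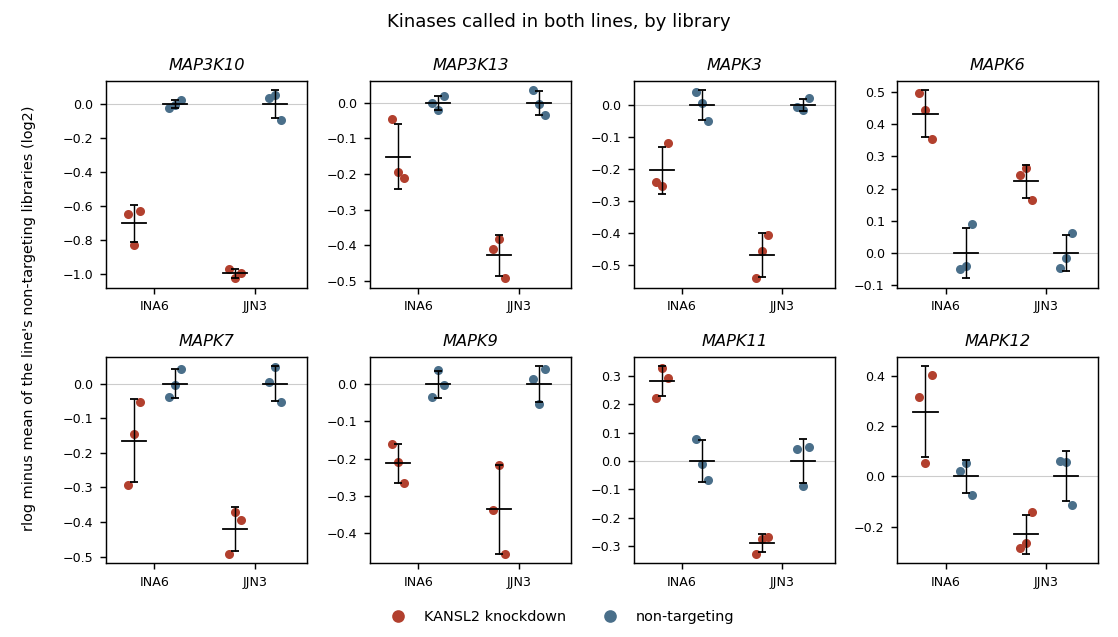
rlog value minus the mean of the line's non-targeting libraries (log2 scale) for 8 kinases called in both lines, with KANSL2 knockdown (red) left of non-targeting (blue) in each line; points are libraries, horizontal lines means, error bars SD (n = 3), and each panel has its own vertical scale. MAPK6 was higher in knockdown libraries of both lines, MAP3K10, MAP3K13, MAPK3, MAPK7 and MAPK9 lower in both, and MAPK11 and MAPK12 higher in INA6 and lower in JJN3.

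Among the p38 genes, MAPK11 (p38 beta) and MAPK12 (p38 gamma) rose in INA6 and fell in JJN3. MAPK11 had 5.57, 5.67 and 5.64 in INA6 knockdown libraries, against 5.42, 5.33 and 5.28 in INA6 non-targeting libraries (0.28, SE 0.0606, adjusted p = 0.000628). Its JJN3 values were 6.28, 6.34 and 6.34 in knockdown libraries, against 6.65, 6.52 and 6.66 in non-targeting libraries (−0.29, SE 0.0572, adjusted p = 9.7e-05). The arms were separate in both lines, in opposite orders.

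MAPK12 had 7.00, 6.74 and 7.09 in INA6 knockdown libraries, against 6.71, 6.74 and 6.61 in INA6 non-targeting libraries (0.26, SE 0.0768, adjusted p = 0.00863). The JJN3 values were 8.28, 8.30 and 8.43 in knockdown libraries, against 8.62, 8.62 and 8.45 in non-targeting libraries (−0.23, SE 0.0552, adjusted p = 0.000895). In neither line did the arms overlap, but the lowest INA6 knockdown value and the highest control were equal to 2 decimals. The INA6 call was lost without knockdown replicate 3 (0.18, 0.0574). MAPK12 and MAPK11 are neighbours on the minus strand of chromosome 22, from 50252901 to 50261683 and from 50263713 to 50270380, with 2029 bases between them.

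MAPK13 (p38 delta) had 3.05, 3.08 and 3.01 in JJN3 knockdown libraries, against 3.10, 3.24 and 3.14 in JJN3 non-targeting libraries, near the minimum mean for testing. The arms did not overlap (−0.11, SE 0.0354, adjusted p = 0.00834), but the call was lost without knockdown replicate 3 (−0.10, 0.0538) or non-targeting replicate 2 (−0.08, 0.0913) and without the variance trend (0.0546). The INA6 values were 5.14, 5.11 and 5.12 in knockdown libraries and 5.10, 4.97 and 5.00 in non-targeting libraries, which were separate but not called (0.10, adjusted p = 0.135). MAPK14 (p38 alpha), the form known to carry most p38 signalling, was called in neither line, at 0.10 in INA6 (adjusted p = 0.0736) and 0.06 in JJN3 (adjusted p = 0.244).

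The MAPKAPK are activated by p38 and, for MAPKAPK5, also by atypical MAP kinases. MAPKAPK2, which controls the stability of inflammatory messenger RNAs, had 12.97, 12.91 and 13.04 in INA6 knockdown libraries, against 12.81, 12.87 and 12.79 in INA6 non-targeting libraries, without overlap (0.15, SE 0.0424, adjusted p = 0.00532). In JJN3 it had 10.94, 10.94 and 11.00 in knockdown libraries and 10.99, 11.07 and 11.04 in non-targeting libraries, which overlapped (−0.08, adjusted p = 0.111).

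MAPKAPK3, a close relative, had 9.81, 9.87 and 9.95 in JJN3 knockdown libraries, against 9.60, 9.67 and 9.69 in JJN3 non-targeting libraries, without overlap (0.22, SE 0.0459, adjusted p = 0.000165). In INA6 it had 9.11, 9.11 and 9.18 in knockdown libraries and 9.12, 9.18 and 9.05 in non-targeting libraries, which overlapped (0.01, adjusted p = 0.847). It shares 255 bases with CISH on the opposite strand, a cytokine-induced gene that fell in both lines (−0.68 in INA6 and −0.27 in JJN3), and reads of that overlap are uncertain.

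**Figure D3:**
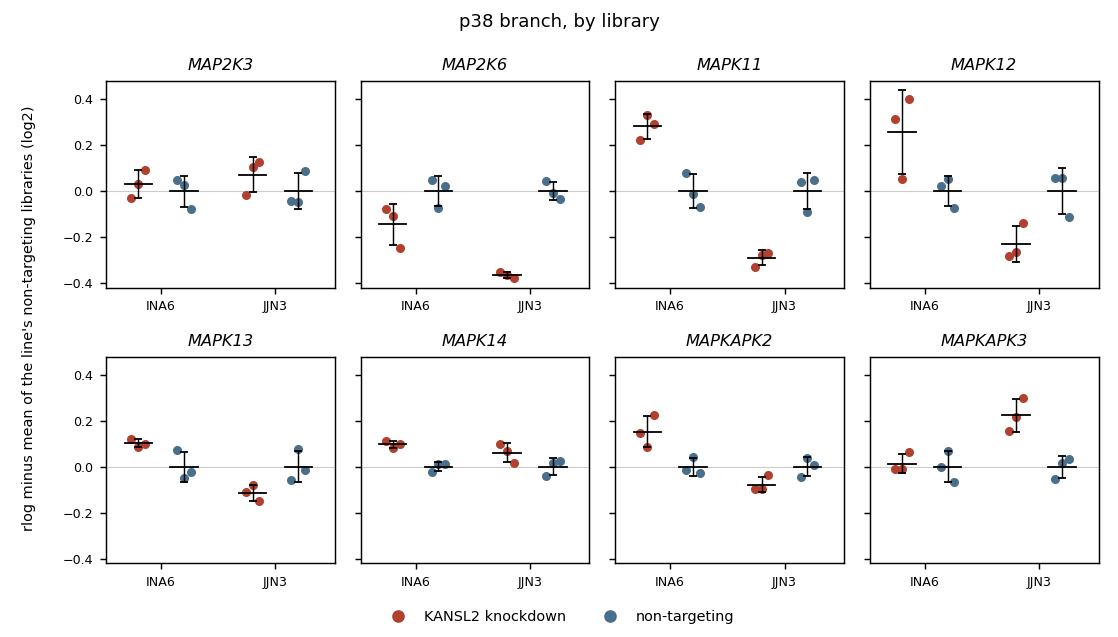
rlog value minus the mean of the line's non-targeting libraries (log2 scale) for the 8 kinases of the p38 branch, with KANSL2 knockdown (red) left of non-targeting (blue) in each line; points are libraries, horizontal lines means, error bars SD (n = 3), on 1 shared vertical scale. The knockdown means of MAPK11 and MAPK12 lie above 0 in INA6, at 0.28 and 0.26, and below it in JJN3, at −0.29 and −0.23.

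By branch, the p38 kinases had 3 of 8 higher and 0 lower in INA6, and 1 higher and 4 lower in JJN3. The ERK5 branch had 0 higher and 1 lower of 4 in INA6 and 0 higher and 2 lower in JJN3, and the JNK branch had the same counts. These counts stand beside backgrounds of 48.6% called in INA6 and 51.0% in JJN3, and call nothing particular to a branch.

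Whether a kinase responded differently in the 2 lines was tested as the INA6 difference minus the JJN3 difference. Each difference was shrunken separately within its line, by an unknown amount that depends on the gene's reads there. The part of unequal shrinkage in the differences between lines was not tested. Of 38 kinases tested in both lines, 18 (47.4%) differed, where 30.0% of 11137 genes did. Calls in both lines were made for 9 of the 38, 7 in the same direction, against 30.4% of all genes in both and 26.5% in the same direction. The 2 in opposite directions, MAPK11 and MAPK12, stand beside 3.91% of all genes. Of the rest 3 were called in INA6 alone, 14 in JJN3 alone and 12 in neither. The difference had the same sign in both lines for 27 kinases (71.1%), beside 69.2% of all genes, and Pearson's r of the differences over these kinases was 0.655, beside 0.492 over all genes, as a description across genes that share libraries.

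The MAPK11 difference between lines was 0.57 (SE 0.0834, adjusted p = 3.15e-07) and the MAPK12 difference 0.49 (SE 0.0946, adjusted p = 6.21e-05), the widest among these kinases. MAP3K1 was at 0.33 (adjusted p = 0.000641). The falls of MAP3K10 (0.30, adjusted p = 0.00614), MAP3K13 (0.28, 0.00423), MAPK3 (0.27, 0.00503) and MAPK7 (0.25, 0.023) were deeper in JJN3, although the MAPK7 difference was not called without INA6 knockdown replicate 2 (0.25, 0.0551) or 3 (0.20, 0.0885), INA6 non-targeting replicate 1 (0.24, 0.0638), JJN3 knockdown replicate 1 (0.22, 0.062) or JJN3 non-targeting replicate 2 (0.23, 0.0598). The rise of MAPK6 was greater in INA6 (0.21, 0.0114). The MAPK9 falls did not differ beyond their error (0.12, 95% interval −0.04 to 0.29). KANSL2 itself fell further in JJN3, and its part in these differences was not tested.

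**Figure D4:**
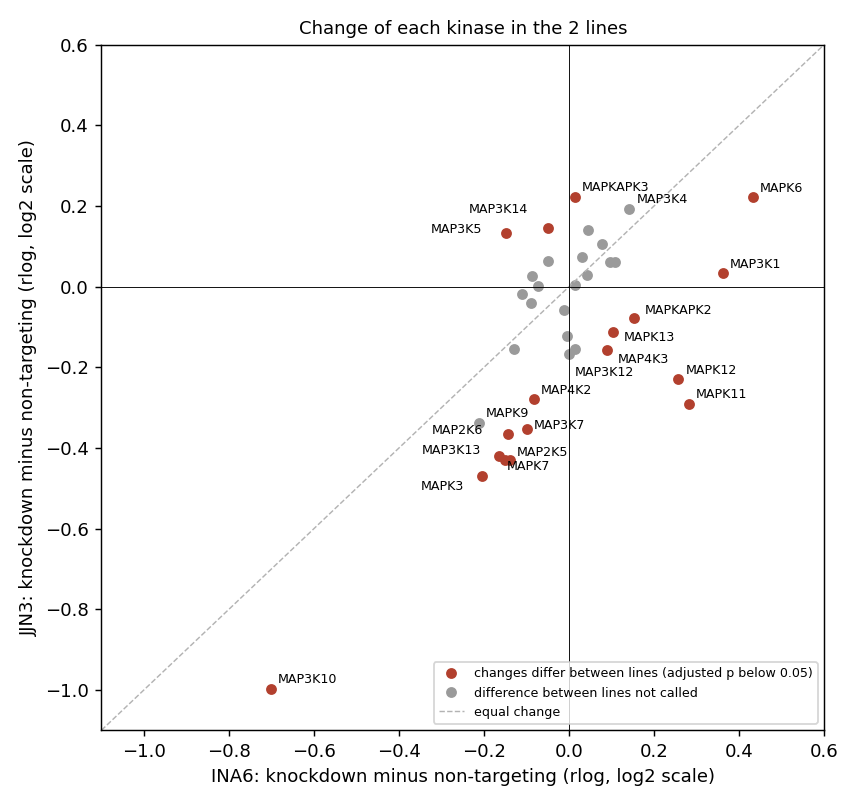
Difference between KANSL2 knockdown and non-targeting libraries (rlog, log2 scale) in INA6 (horizontal axis) and JJN3 (vertical axis), with 1 point per kinase shown, red where the change differed between lines and grey where that was not called; the dashed line marks equal change. MAP3K10 lies at the far lower left, at −0.70 in INA6 and −0.997 in JJN3, and MAPK11 and MAPK12 lie to the lower right.

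Around these kinases, the genes that feed, hold or switch off the cascade were followed in 6 lists, whose counts stand beside 48.6% of all tested genes called in INA6 (24.7% higher and 24.0% lower) and 51.0% in JJN3 (25.5% in each direction). Every gene said here to rise or fall in a line had a limma adjusted p of at most 0.0488 in it, and the value in the other line is given beside it. RAS, RAF and their regulators had 3 of 19 tested genes higher and 3 lower in INA6 (median 0.01), and 5 higher and 5 lower of 19 in JJN3 (median −0.01). SOS2, an exchange factor that loads RAS with GTP, fell in both lines (−0.41 in INA6 and −0.28 in JJN3), as did NF1, which switches RAS off (−0.28 in INA6 and −0.20 in JJN3). PEBP1, an inhibitor of RAF kinases, rose in both (0.30 in INA6 and 0.18 in JJN3). In JJN3 RASGRP3 rose (0.41, with −0.05 in INA6) and BRAF fell (−0.22, with −0.10 in INA6).

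Scaffolds and adaptors had 2 higher and 4 lower of 19 in INA6 (median −0.02) and 6 higher and 2 lower of 20 in JJN3 (median 0.05). GADD45A, which binds MAP3K4, fell in INA6 (−0.25) and rose in JJN3 (0.14). In INA6 WDR83 rose (0.34, with 0.05 in JJN3), while the TAK1 adaptor TAB3 (−0.26, with 0.04 in JJN3) and the JNK scaffold SPAG9 (−0.20, with −0.05 in JJN3) fell. In JJN3 GADD45B, an activator of MAP3K4, rose (0.64, with 0.12 in INA6), as did the RAF scaffold KSR1 (0.21, not tested in INA6), while TAB2 (−0.20, with −0.04 in INA6) and LAMTOR4 (−0.19, with −0.06 in INA6) fell.

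Upper-tier kinases under other names were listed together with TNK2, a tyrosine kinase that is not a MAP4K or MAP3K. This list had 2 higher and 4 lower of 13 in INA6 (median −0.04) and 3 higher and 5 lower of 14 in JJN3 (median −0.07). STK4 rose in both lines (0.27 in INA6 and 0.21 in JJN3), and MINK1, a relative of MAP4K4, fell in both (−0.24 in INA6 and −0.20 in JJN3), as did PAK1 (−0.45 in INA6 and −0.13 in JJN3). PAK2 rose in INA6 (0.23, with 0.04 in JJN3). In JJN3 TNK2 rose (0.23, with −0.04 in INA6) and TAOK2 fell (−0.19, with −0.11 in INA6).

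A further list held kinases activated by MAP kinases, with NLK and CDK5 added, which are not of that kind. It had 1 higher and 3 lower of 8 in INA6 (median −0.07) and 1 higher and 6 lower of 10 in JJN3 (median −0.13). RPS6KA4 (MSK2), a histone kinase below ERK and p38, rose in both (0.30 in INA6 and 0.29 in JJN3), and NLK fell in both (−0.30 in INA6 and −0.23 in JJN3). In INA6 RPS6KA1 (−0.21, with −0.02 in JJN3) and RPS6KA3 (−0.15, with 0.03 in JJN3) fell. In JJN3 CDK5 (−0.36, with −0.001 in INA6) and RPS6KA2 (−0.18, not tested in INA6) fell.

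The phosphatases that switch MAP kinases off had 7 higher and 3 lower of 16 in INA6 (62.5% called, beside 48.6% of all genes; median 0.07) and 8 higher and 4 lower of 15 in JJN3 (80.0%, beside 51.0%; median 0.16). DUSP10, which acts on p38 and JNK, rose in both lines (0.34 in INA6 and 0.70 in JJN3), as did DUSP7 (0.20 in INA6 and 0.21 in JJN3), PPP2CA (0.29 in INA6 and 0.21 in JJN3) and PPM1D (0.30 in INA6 and 0.24 in JJN3). DUSP5, a nuclear ERK phosphatase, fell in INA6 (−0.40) and rose in JJN3 (0.34). DUSP1, an early response gene that MAP kinase signalling itself induces, fell in INA6 (−0.99, with −0.06 in JJN3), and PTPN7 rose in JJN3 (0.27, with 0.09 in INA6).

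Nuclear targets had 5 higher and 8 lower of 22 in INA6 (median −0.002) and 10 higher and 4 lower of 22 in JJN3 (median 0.06). FOS, an immediate early gene, fell in INA6 (−1.49) and rose in JJN3 (0.63). JUNB fell in both lines (−0.98 in INA6 and −0.17 in JJN3), as did ETV4, an ETS factor (−0.42 in INA6 and −0.59 in JJN3). In INA6 JUN fell (−0.67, with −0.07 in JJN3) and SRF rose (0.44, with 0.02 in JJN3). In JJN3 FOSB (0.88, with 0.01 in INA6) and ETS2 (0.43, not tested in INA6) rose.

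**Figure D5:**
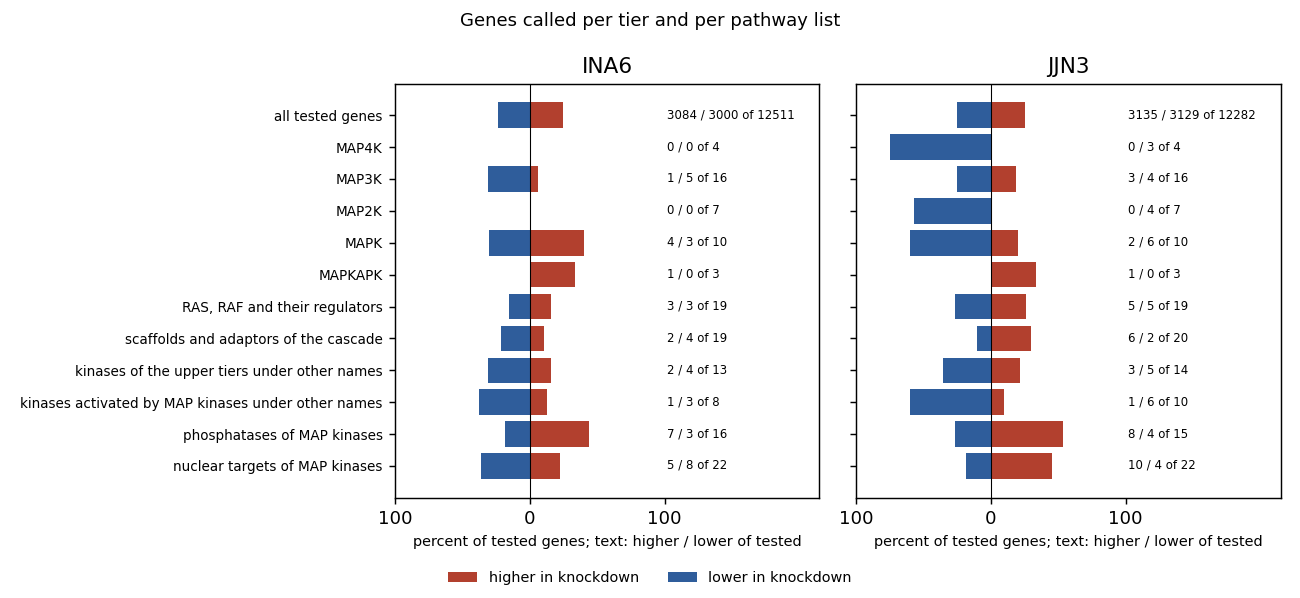
Percent of tested genes called higher (red, to the right) or lower (blue, to the left) in KANSL2 knockdown libraries by limma at adjusted p below 0.05, for all tested genes, each tier and each list of related genes, in INA6 and JJN3; the numbers give higher and lower of tested. The MAP2K tier had 0 of 7 called in INA6 and 4 lower in JJN3, beside 48.6% of all tested genes called in INA6 and 51.0% in JJN3, and 7 genes are too few to set a tier apart.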

How the data were processed

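Poly(A) RNA of 12 libraries was sequenced, 3 in each of 4 groups taken from the sample titles; 4 ATAC libraries were not analysed here. The tools named, per the submitters' processing notes, are DESeq2, HTSeq, Bowtie2 and Trim Galore, with build hg38; versions, strand setting and splice-aware alignment are not given in the sources used here. The authors deposited 1 table per line of rlog values on the log2 scale, normalised separately, which shrinks changes of genes with few reads. Depth is unknown and no counting interval was computed. No level was compared between lines or between genes, but differences shrunken separately in each line were compared between lines.

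Genes averaging 3 or more over 6 libraries were fitted within a line with limma 3.58.1 (R 4.3.3; empirical Bayes with a variance trend) and Benjamini-Hochberg adjustment over all tested genes. The difference between lines was divided by the root of the summed squared standard errors and adjusted over 11137 genes. The main fit of each line was also run on simulated data, in which far fewer genes changed than were called here. The alternative fits and the test between lines were not simulated. Library values are given for kinases called in both lines, for the called kinase with the largest difference per tier and line, and for those differing between lines; up to 4 called genes per list and line with the smallest p are named. Some genes enter the counts but are not reported here by name. Members and lists were chosen with earlier results of these data known. All 46 kinases matched RefSeq (GRCh38.p14) and 41 had a promoter sequence. Alternatives were no filter, a minimum mean of 5, median centring, quantile normalisation, a replicate block, no variance trend and leaving out each library.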

Additional observations from a re-analysis of the deposited data

Results flagged for a closer look

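For 18 kinases the change after KANSL2 knockdown differed between INA6 and JJN3 by a test of the difference itself (INA6 difference minus JJN3 difference on the rlog log2 scale, limma estimates, adjusted over 11137 genes). It was 0.57 for MAPK11 and 0.49 for MAPK12, which rose in INA6 and fell in JJN3. For kinases that fell in both lines it was 0.30 for MAP3K10, 0.28 for MAP3K13, 0.27 for MAPK3 and 0.25 for MAPK7, each with the deeper fall in JJN3. MAPK6, which rose in both, was at 0.21. Of those called in INA6 alone, MAP3K1 was at 0.33, MAPKAPK2 at 0.23 and MAP3K5 at −0.28. Of those called in JJN3 alone, MAP2K5 was at 0.29, MAP3K7 at 0.25, MAP4K3 at 0.25, MAP2K6 at 0.22, MAPK13 at 0.22, MAP4K2 at 0.20, MAP3K14 at −0.20 and MAPKAPK3 at −0.21. The share that differed among all genes was 30.0%. On the shrunken rlog scale the remaining KANSL2 RNA was 76.4% of control in INA6 and 43.1% in JJN3. The part of this depth of knockdown, and that of unequal shrinkage in the lines, was not tested.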

How the results depend on the processing

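Under 12 alternatives per line, 9 of 14 calls in INA6, 14 of 23 in JJN3 and 11 of 18 differences between lines passed under every alternative that tested them, and no called value changed sign. In INA6 10 kinases were higher with median centring instead of 6, and 5 were lower instead of 8 with no filter, with median centring and with quantile normalisation; the cause was not tested. Leaving out 1 library at a time gave 10 to 15 called kinases in INA6 (6 to 7 higher, 4 to 9 lower), 20 to 24 in JJN3 (5 to 8 higher, 14 to 17 lower) and 12 to 18 that differed between lines. The INA6 lower count was 4 without knockdown replicate 2, without non-targeting replicate 1 or without non-targeting replicate 3. With the replicate number as a block, 12 were called in INA6 (6 higher, 6 lower), 23 in JJN3 (6 higher, 17 lower) and 16 differed between lines. The deviations of same-numbered libraries correlated at −0.179, −0.0678 and −0.296 in INA6 and 0.00452, −0.014 and 0.00188 in JJN3, so the numbers were not taken as pairs. Those of libraries with other numbers correlated at −0.0686 to 0.24 in INA6 and −0.0556 to 0.0637 in JJN3. Structure shared across arms under other numbers was not modelled. Of the differences between lines (limma adjusted p), quantile normalisation ended those of MAP3K14 (−0.09, 0.315), MAPKAPK3 (−0.15, 0.092) and MAP2K6 (0.19, 0.0638), the block those of MAP3K14 (0.0563) and MAP2K6 (0.0502), and no filter that of MAP4K2 (0.0521). Leaving out single libraries ended MAP3K5 (JJN3 knockdown replicate 3; −0.21, 0.0591), MAP4K3 (INA6 knockdown replicate 2; 0.19, 0.125; or INA6 non-targeting replicate 3; 0.23, 0.0593) and, each for 4 to 7 libraries, MAPKAPK3 (weakest without INA6 non-targeting replicate 2; −0.18, 0.0796), MAP3K14 (without INA6 non-targeting replicate 1; −0.18, 0.0821), MAPK7 (without INA6 knockdown replicate 3; 0.20, 0.0885), MAP2K6 (without INA6 non-targeting replicate 2; 0.18, 0.124) and MAP4K2 (without INA6 non-targeting replicate 3; 0.15, 0.149). Without depth or counts, changes of genes with low values are understated by an unknown amount.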

Other observations

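MAPK11 and MAPK12 lie side by side on chromosome 22, and the genes within 50000 bases of them did not share 1 pattern. HDAC10, the histone deacetylase gene next to MAPK12, was at 0.13 in INA6 (limma adjusted p = 0.125) and fell in JJN3 (−0.14, adjusted p = 0.0422), and its change differed between lines (0.27, adjusted p = 0.0181). PLXNB2 and DENND6B on the other side fell in INA6 (−0.45 and −0.46) and were not called in JJN3 (−0.03 and 0.03), and their changes differed between lines in the opposite direction (−0.42, adjusted p = 6.46e-05, for PLXNB2 and −0.49, adjusted p = 1.26e-05, for DENND6B). TUBGCP6 was called in neither line (−0.10 in INA6 and −0.06 in JJN3), nor was SELENOO (−0.09 and 0.12), although the SELENOO change differed between lines (−0.21, adjusted p = 0.0382) and that of TUBGCP6 was not called (−0.05, adjusted p = 0.673).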
